A study of Mus musculus with 24 samples.

Results

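The genes described here are 10 cytochrome P450 genes of the mouse Cyp2c family, namely Cyp2c29, Cyp2c37, Cyp2c38, Cyp2c39, Cyp2c40, Cyp2c50, Cyp2c54, Cyp2c55, Cyp2c69 and Cyp2c70. They are 10 of the 18 Cyp2c rows and of the 34945 named genes in the deposited table of liver expression. The members were picked by symbol with their levels in these same libraries in view, so their levels, differences and calls are given as a description. The 24 liver libraries come from 4 genotypes, each on 2 diets, with 3 libraries in each of the 8 groups. The controls, labelled WT, carried loxP-flanked alleles of both studied genes (FoxO1lox/lox; PPARαlox/lox). The knockouts were labelled LFKO (FoxO1-/-), LPKO (PPARα-/-) and LFPKO (both), and were made with a constitutive Albumin-Cre transgene. Albumin-Cre is active in hepatocytes, and liver cells in which it was never active keep both genes. The labels state neither which cells those are nor whether WT livers carried the transgene. Every group was fasted for 4 h, and the diet of the last 3 weeks was regular (RD) or high in fat (HFD). The labels give neither sex nor age.

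Cyp2c enzymes are heme monooxygenases of the endoplasmic reticulum that oxidise drugs, steroids, retinoids and fatty acids, and several of them turn arachidonic acid into epoxides or hydroxylated products. They receive electrons from the reductase encoded by Por. In liver they are known as targets of the xenobiotic receptors CAR and PXR and of HNF4A, many are strongest in the hepatocytes around the central vein, and several differ between male and female mice under the control of growth hormone and STAT5. FoxO1 is a forkhead transcription factor that insulin keeps out of the nucleus, and PPARα is a nuclear receptor that fatty acids activate during fasting.

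The data show 4 kinds of pattern in the family. Cyp2c40 and Cyp2c69 were highest in RD LFKO livers, each at 18.4-fold the RD WT mean, and were low in every other group. Cyp2c37 had its lowest mean on each diet in the livers labelled as lacking both factors, and Cyp2c38 on the regular diet was low in all 6 libraries labelled as lacking PPARα. Cyp2c55 on the regular diet was higher in each of the 3 knockouts than in WT livers. The diet separated all libraries for Cyp2c29 and Cyp2c55, whose 12 HFD libraries lay below their 12 RD libraries, whereas Cyp2c70 was the member called higher on the high-fat diet in WT livers.

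All 10 members lie within 1.18 Mb of chromosome 19, from base 39007019 to base 40187333 of GRCm38 (GENCODE M21 annotation), 5 on each strand. In chromosome order they are Cyp2c55 (39007019 to 39042693, plus strand), Cyp2c29 (39269405 to 39330713, plus), Cyp2c38 (39389556 to 39463075, minus), Cyp2c39 (39510862 to 39568529, plus), Cyp2c40 (39767071 to 39812814, minus), Cyp2c69 (39842814 to 39886799, minus), Cyp2c37 (39992424 to 40012243, plus), Cyp2c54 (40037940 to 40073827, minus), Cyp2c50 (40089688 to 40113950, plus) and Cyp2c70 (40153353 to 40187333, minus). Cyp2c67 and Cyp2c68, which are not among the members, lie between Cyp2c39 and Cyp2c40.

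The members are alike in sequence, which bears on how reads are divided among them. The longest coding transcripts of Cyp2c40, Cyp2c67, Cyp2c68 and Cyp2c69 form one block, in which Cyp2c40 shared 98.0% of aligned bases with Cyp2c68, 97.8% with Cyp2c69 and 97.6% with Cyp2c67. Cyp2c37, Cyp2c50 and Cyp2c54 form a second block, at 94.8% to 95.8%. Cyp2c38 and Cyp2c39 form a further pair, at 93.8%, with Cyp2c29 at 88.2% to Cyp2c39. Cyp2c55 and Cyp2c70 stand apart from the rest. A read can be placed where it holds a stretch found in 1 gene only, and stretches of 31 bases were counted for this. Only 27.4% of those of Cyp2c40 and 35.1% of those of Cyp2c69 occurred in no other annotated gene, inside or outside the family. The share was 52.6% for Cyp2c37, 57.7% for Cyp2c54, 70.8% for Cyp2c50, 73.1% for Cyp2c39, 83.4% for Cyp2c38, 89.6% for Cyp2c29, 97.1% for Cyp2c55 and all of those of Cyp2c70. Levels of Cyp2c40 and Cyp2c69, and to a lesser degree of Cyp2c37, Cyp2c50 and Cyp2c54, are therefore uncertain as single genes, and their sums are given beside them.

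**Figure D1:**
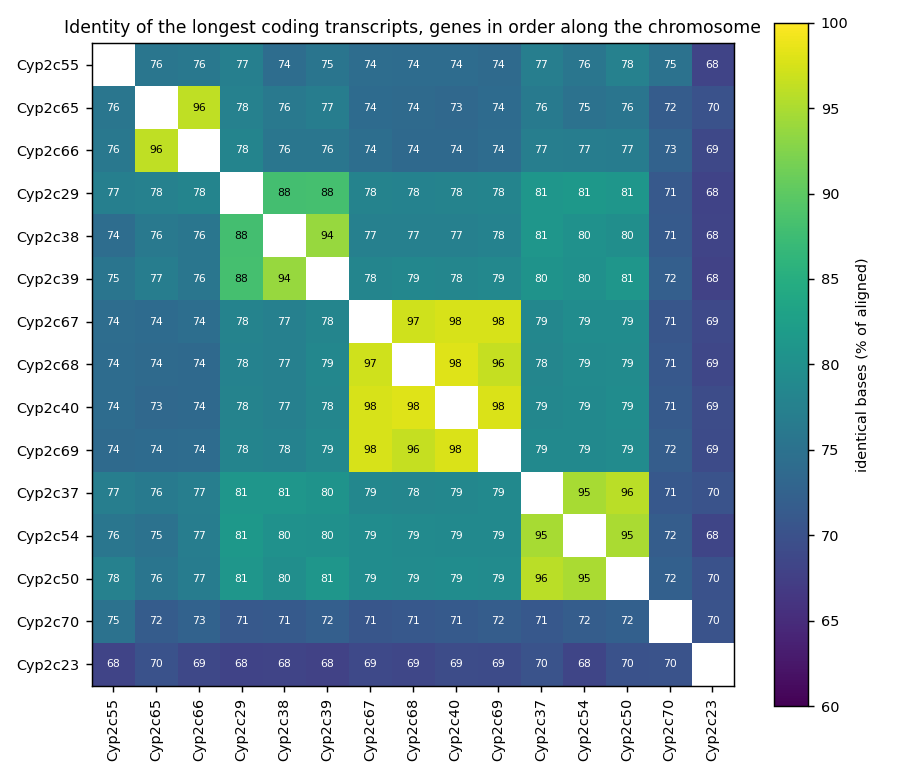
Percent of aligned bases that are identical between the longest coding transcripts of 15 Cyp2c genes, ordered along the chromosome, with the colour scale from 60% to 100%. Bright blocks mark Cyp2c67, Cyp2c68, Cyp2c40 and Cyp2c69, and Cyp2c37, Cyp2c54 and Cyp2c50, while Cyp2c70 and Cyp2c23 are the rows least like the others.

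Promoter windows from RefSeq (GRCm38.p6), each holding 250 bases before and 50 bases after the annotated start, matched 9 of the 10 members, all but Cyp2c54. They are shown for 3 pairs of like genes on which the genotype results turn, Cyp2c40 with Cyp2c69, Cyp2c38 with Cyp2c39, and Cyp2c37 with Cyp2c50. Each is written 5′ to 3′ on the gene's own strand, with capitals marking TGTTTAC, a sequence that forkhead factors bind, and CAAAGTCC, a sequence that HNF4 binds. The windows are chr19:39812765-39813064 (minus strand), chr19:39886720-39887019 (minus), chr19:39463026-39463325 (minus), chr19:39510572-39510871 (plus), chr19:39992174-39992473 (plus) and chr19:40089429-40089728 (plus).
Cyp2c40: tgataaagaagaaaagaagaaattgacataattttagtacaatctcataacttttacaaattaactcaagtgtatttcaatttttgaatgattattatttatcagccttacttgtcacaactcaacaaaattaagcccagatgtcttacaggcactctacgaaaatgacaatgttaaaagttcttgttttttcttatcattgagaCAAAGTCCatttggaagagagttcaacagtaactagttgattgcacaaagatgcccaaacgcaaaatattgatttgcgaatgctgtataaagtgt
Cyp2c69: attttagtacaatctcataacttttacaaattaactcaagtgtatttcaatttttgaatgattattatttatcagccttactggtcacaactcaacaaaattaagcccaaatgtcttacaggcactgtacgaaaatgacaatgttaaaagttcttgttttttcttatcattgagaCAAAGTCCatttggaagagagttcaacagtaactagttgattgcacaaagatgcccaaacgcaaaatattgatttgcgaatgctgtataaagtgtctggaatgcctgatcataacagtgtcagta
Cyp2c38: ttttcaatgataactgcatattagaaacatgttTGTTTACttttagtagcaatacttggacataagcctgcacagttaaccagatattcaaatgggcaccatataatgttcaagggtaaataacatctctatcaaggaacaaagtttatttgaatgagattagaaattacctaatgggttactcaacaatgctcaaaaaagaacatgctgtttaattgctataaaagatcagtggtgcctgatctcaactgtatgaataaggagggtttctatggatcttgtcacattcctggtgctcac
Cyp2c39: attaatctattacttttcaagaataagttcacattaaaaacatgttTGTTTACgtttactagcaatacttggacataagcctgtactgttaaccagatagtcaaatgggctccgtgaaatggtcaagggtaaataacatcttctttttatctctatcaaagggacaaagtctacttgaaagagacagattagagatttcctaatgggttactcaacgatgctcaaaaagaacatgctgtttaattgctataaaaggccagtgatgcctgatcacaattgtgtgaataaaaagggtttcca
Cyp2c37: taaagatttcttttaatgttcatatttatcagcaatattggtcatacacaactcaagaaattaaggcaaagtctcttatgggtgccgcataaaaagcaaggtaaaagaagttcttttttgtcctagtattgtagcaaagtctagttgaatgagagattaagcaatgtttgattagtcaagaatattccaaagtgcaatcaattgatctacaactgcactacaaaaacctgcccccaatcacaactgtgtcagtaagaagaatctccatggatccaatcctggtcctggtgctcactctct
Cyp2c50: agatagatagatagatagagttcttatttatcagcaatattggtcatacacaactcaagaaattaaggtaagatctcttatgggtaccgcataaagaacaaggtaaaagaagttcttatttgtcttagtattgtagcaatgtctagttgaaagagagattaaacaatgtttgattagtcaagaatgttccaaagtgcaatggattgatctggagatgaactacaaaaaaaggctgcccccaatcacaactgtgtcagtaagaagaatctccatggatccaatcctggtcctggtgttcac

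The windows of Cyp2c40 and Cyp2c69 were 98.9% identical over the 270 bases that align, since the annotated starts of the 2 genes differ. Those of Cyp2c37 and Cyp2c50 were 91.0% identical, and those of Cyp2c38 and Cyp2c39 88.2%. TGTTTAC, searched on both strands as were the other motifs, occurred in 2 of the 9 member windows, those of Cyp2c38 (first base at -217 from the start) and Cyp2c39 (-204), and in 3.65% of 32851 promoter windows of the genome. CAAAGTCC occurred in 3, Cyp2c40 (-45), Cyp2c69 (-75) and Cyp2c70 (-64), and in 1.42% of all windows. ATTGATTT, a sequence of the HNF6 type, was found in Cyp2c40 and Cyp2c69 and in 1.20% of all windows. Cyp2c67 and Cyp2c68, which are not members, held both CAAAGTCC and ATTGATTT in their windows, so neither is particular to Cyp2c40 and Cyp2c69. Of 13 Cyp2c windows, 7 held CAAAGTCC and 4 held ATTGATTT. Over the bases that align, the Cyp2c40 window was 93.2% identical to that of Cyp2c67 and 94.4% to that of Cyp2c68. The TATA sequence TATAAA was in 7 of 9 member windows and in 13.6% of all. It began before the annotated start in Cyp2c38 (-31), Cyp2c55 (-29), Cyp2c70 (-29), Cyp2c29 (-19) and Cyp2c39 (-3). In Cyp2c69 (10) and Cyp2c40 (40) it began after the annotated start, so positions in these windows depend on where the start is annotated. Neither TTCNNNGAA (STAT5, 8.30% of all windows) nor an exact direct repeat of AGGTCA with 1 base between, the PPAR type (0.0396% of all windows), was found in any of the 9. These letters describe the windows and are not evidence of binding.

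Levels are in TPM, a measure that allows for transcript length and scales all transcripts of a library to one total, so they can be compared between genes. Listed TPM of a library summed to 956785 to 993524, and 9749 to 10937 genes per library reached 1 TPM. TPM keeps no read counts and the depth is unknown here, so precision was judged from the spread of 3 libraries. The labels do not say that replicates are separate mice, and p-values then measure only the spread between these samples. Differences are log2 fold changes ± SE of log2(TPM + 1), a scale on which the change of a gene with a low level comes out too small. "Called" means an adjusted p under 0.05 from limma over the 10551 genes whose TPM averaged 1 or more, among them all 10 members. Every share of all genes is of genes called. Where a count at an unadjusted limma p under 0.05 is given, the share of all genes at that threshold was not counted. Foxo1 was 0.250 to 0.484 TPM in the 12 LFKO and LFPKO libraries and 4.06 to 9.94 TPM in the other 12. Ppara had 57.5 to 87.3 TPM where the label says LPKO or LFPKO, against 37.1 to 68.8 TPM in the other 12 libraries, so it was not lower, but a TPM of the whole gene includes transcripts without a deleted exon, so it does not check those labels. Vnn1, a PPARα target chosen after its values were seen, was 0.570 to 6.0 TPM in those 12 and 25.4 to 91.7 TPM in the other 12. HFD LFKO replicate 1 stood apart from the other 2 of its group, with 17.7% of its TPM in the Mup genes of major urinary proteins against 10.9% and 6.50%, and results that rest on it are given with and without it. By the same measure HFD LPKO replicate 3 stood apart too, at 26.1% against 13.4% and 12.5%. Leaving it out moved the count of all genes called from 499 to 892 in HFD LPKO against WT. In HFD LFPKO against LPKO that count moved from 37 to 279. Mup genes took 7.99% to 11.7% of TPM in RD WT and 20.1% to 30.7% in HFD WT libraries, which lowers the share of every other gene, and results of the diet are therefore also given after rescaling. The 4 Y-linked genes tested (Ddx3y, Eif2s3y, Uty and Kdm5d) were detected in all 24 libraries, with Ddx3y at 13.4 to 21.5 TPM.

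In RD WT livers the members ranged from abundant to barely detected. Cyp2c29 was the highest at 1304 ± 101 TPM (mean ± SD, n = 3), followed by Cyp2c50 at 743 ± 21.5 TPM. Cyp2c70 (289.7 ± 86.7) and Cyp2c54 (279 ± 31.3) overlapped with each other, and Cyp2c37 (226 ± 15.5) lay wholly below Cyp2c54 and overlapped with Cyp2c70. Then came Cyp2c38 (25.0 ± 6.03), Cyp2c40 (6.27 ± 4.56), Cyp2c55 (4.35 ± 0.148), Cyp2c39 (2.37 ± 0.554) and Cyp2c69 (1.99 ± 1.34). Cyp2c40 overlapped with the other 3 of these and Cyp2c39 with Cyp2c69, while Cyp2c55 lay above Cyp2c39 and Cyp2c69. The order changed with the diet. In HFD WT livers Cyp2c70 (524 ± 76.1 TPM) and Cyp2c50 (404 ± 87.8) overlapped at the top and Cyp2c29 (230.3 ± 65.0) was below both. It changed with genotype too, since in RD LFKO livers Cyp2c40 (115 ± 52.7 TPM) overlapped with Cyp2c37 (86.8 ± 32.9), from which it was separated in RD WT livers. Of the other 8 Cyp2c rows, Cyp2c23 (141 to 338 TPM over the 24 libraries), Cyp2c67 (93.8 to 383) and Cyp2c68 (55.7 to 337) were tested. The remaining 5 never reached 1 TPM: Cyp2c53-ps had 0.0582 to 0.636 TPM, Cyp2c52-ps at most 0.316, Cyp2c65 at most 0.119 and Cyp2c66 at most 0.0251 TPM, and Cyp2c73-ps was listed at 0 throughout.

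**Figure D2:**
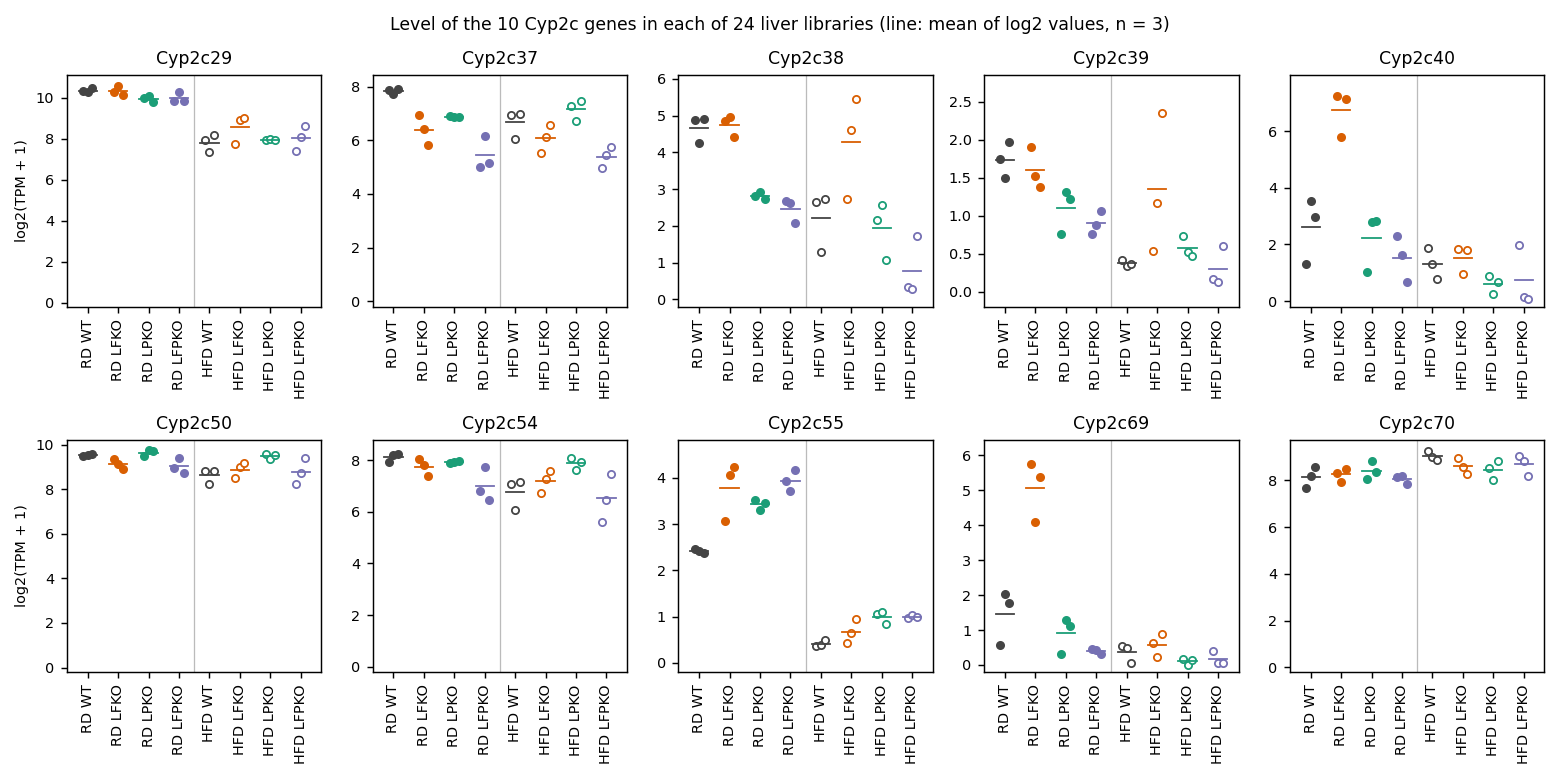
Level of each of the 10 genes, as log2(TPM + 1), in the 24 liver libraries, with 1 panel per gene, filled points for the regular and open points for the high-fat diet, and lines at the mean of 3 libraries. Cyp2c40 and Cyp2c69 stand out in RD LFKO, Cyp2c38 is low in RD LPKO and RD LFPKO, and the open points of Cyp2c29 and Cyp2c55 all lie below the filled ones.

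Cyp2c29 encodes an arachidonic acid epoxygenase that responds to CAR. Its RD levels were 1271, 1224 and 1417 TPM in WT, 1231, 1518 and 1136 in LFKO, 1006, 1083 and 878 in LPKO and 912, 1237 and 912 in LFPKO livers (replicates 1, 2 and 3, here and below). On HFD they were 244, 159.7 and 288 TPM in WT, 211, 481 and 512 in LFKO, 239.6, 254 and 241 in LPKO and 169, 271 and 388 in LFPKO livers. The 12 RD libraries (878 to 1518 TPM) and the 12 HFD libraries (159.7 to 512 TPM) did not overlap, and the RD mean of WT livers was 5.66-fold the HFD mean. The HFD minus RD difference was -2.54 ± 0.29 in WT, -1.78 ± 0.29 in LFKO, -2.0 ± 0.29 in LPKO and -1.95 ± 0.29 in LFPKO livers, called lower in each, also with any 1 library left out. Knockout differences were small beside it, the largest on RD being -0.40 ± 0.29 in LPKO livers, where the groups did not overlap and the gene was not called. In HFD LFKO livers replicates 2 and 3 were above every HFD WT library and replicate 1 was not (0.73 ± 0.29, not called). Without replicate 1 that difference was 1.15 and was called higher. The share of Cyp2c29 in the TPM of all 18 Cyp2c rows went from 35.2% ± 1.05 in RD WT to 12.5% ± 2.16 in HFD WT livers (SD, n = 3).

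Cyp2c37, Cyp2c50 and Cyp2c54 encode enzymes that oxidise arachidonic acid, Cyp2c37 mainly to hydroxylated products and the other two to epoxides. Cyp2c37 on RD was 231, 209 and 239 TPM in WT, 121, 84.6 and 55.1 in LFKO, 119, 115 and 116 in LPKO and 30.9, 71.0 and 34.7 in LFPKO livers. Every RD knockout library lay below every RD WT library, and the LFPKO libraries all lay below the LPKO ones. The differences from WT were -1.44 ± 0.33 in LFKO and -2.38 ± 0.33 in LFPKO livers, both called lower, and -0.94 ± 0.33 in LPKO livers, not called. The LPKO difference was called when the other groups were left out of the fit. The LFKO call was lost with any of RD WT replicates 1, 2 and 3 or RD LFKO replicates 2 and 3 left out (-1.71 to -1.15) and with no filter on low values, and that of LFPKO with none of the 6. On HFD the gene was 123, 65.8 and 125 TPM in WT, 44.8, 68.6 and 93.9 in LFKO, 156, 105 and 174 in LPKO and 30.0, 42.6 and 52.6 in LFPKO livers. Only LFPKO livers lay wholly below WT on this diet and were called lower (-1.28 ± 0.33), a call lost without HFD WT replicate 1 or 3 or HFD LFPKO replicate 1 or 2 (-1.58 to -1.07). LFPKO was also called lower than LPKO on HFD (-1.78 ± 0.33; -1.99 to -1.56 with 1 library left out, not called without HFD LPKO replicate 1 or HFD LFPKO replicate 1 or 2). Both HFD calls were also lost with no filter on low values and when the other groups were left out of the fit. The same difference on RD, -1.44 ± 0.33, was not called.

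Cyp2c50 is the sister gene with the higher level. Its RD values were 719, 749 and 760.5 TPM in WT, 655, 561 and 483 in LFKO, 719, 860.0 and 839 in LPKO and 502, 674 and 423 in LFPKO livers. Both groups without FoxO1 lay below WT and were not called (-0.40 ± 0.23 and -0.50 ± 0.23). On HFD the values were 459.5, 303 and 449.7 TPM in WT, 360.2, 513 and 573 in LFKO, 773, 667 and 739 in LPKO and 302, 421 and 676 in LFPKO livers. LPKO stood above WT and was called higher (0.87 ± 0.23), a call lost without HFD WT replicate 2 or any 1 of the 3 HFD LPKO libraries (0.67 to 0.97), with no filter on low values or when the other groups were left out of the fit.

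Cyp2c54 was 244, 289.9 and 303 TPM in RD WT, 261, 220.5 and 164 in RD LFKO, 236, 242 and 248 in RD LPKO and 110.5, 209 and 87.8 in RD LFPKO livers. On HFD it was 133, 65.6 and 143 TPM in WT, 104, 152 and 190.3 in LFKO, 272, 193 and 244 in LPKO and 48.0, 87.3 and 177 in LFPKO livers. RD LFPKO lay below and HFD LPKO above the WT libraries of the same diet, without a call (-1.13 ± 0.37 and 1.11 ± 0.37). The first was called after either rescaling and without RD LFPKO replicate 2. The sum of the 3 genes was -0.54 ± 0.27 in RD LFKO and -0.84 ± 0.27 in RD LFPKO against WT livers, neither called, each nearer 0 than Cyp2c37. On HFD it lay above WT in LPKO livers without a call (0.86 ± 0.27), where Cyp2c37 overlapped with WT (0.49 ± 0.33). The share of Cyp2c37 in that sum was 18.1% ± 1.32 in WT, 9.75% ± 1.90 in LFKO, 10.1% ± 0.902 in LPKO and 6.20% ± 1.33 in LFPKO livers on RD (SD, n = 3). On HFD the same share was 16.6% ± 1.25, 9.70% ± 1.11, 13.0% ± 2.10 and 7.15% ± 1.16. On both diets every knockout library had a lower share than every WT library, and the share in WT livers overlapped between the diets.

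Cyp2c38, an epoxygenase gene, followed the PPARα label on RD. It was 28.2, 18.1 and 28.8 TPM in WT, 28.1, 29.8 and 20.4 in LFKO, 6.07, 6.58 and 5.60 in LPKO and 5.38, 5.12 and 3.19 in LFPKO livers. The 6 RD libraries labelled as lacking PPARα had 3.19 to 6.58 TPM and the other 6 had 18.1 to 29.8 TPM, with no overlap. LPKO and LFPKO were called lower than WT (-1.85 ± 0.53 and -2.22 ± 0.53), and LFPKO lower than LFKO (-2.29 ± 0.53). The LPKO call was lost with any 1 of the 6 compared libraries left out (-2.06 to -1.74), with a pseudocount of 0.1, with no filter on low values and with the replicate block, that of LFPKO against WT without RD WT replicate 3 or RD LFPKO replicate 3 (-2.43 to -2.03), and that against LFKO without RD LFKO replicate 1 or 2 or RD LFPKO replicate 3 (-2.45 to -2.10). In HFD livers it was 5.21, 1.42 and 5.62 TPM in WT, 5.69, 23.4 and 42.9 in LFKO, 3.49, 4.93 and 1.11 in LPKO and 0.257, 0.214 and 2.33 in LFPKO. HFD LFKO replicate 1 was close to WT while replicates 2 and 3 were at RD WT levels or above. LFKO was called higher than WT (2.06 ± 0.53; 2.82 without HFD LFKO replicate 1). That call was lost without HFD WT replicate 2 or HFD LFKO replicate 2 or 3 (lowest value 1.46). LFPKO was called lower than LFKO (-3.49 ± 0.53), also with any 1 of the 6 libraries left out (-4.25 to -2.89).

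Cyp2c39, which encodes a retinoic acid hydroxylase, is the gene most like Cyp2c38 and reached at most 4.09 TPM. Its RD values were 2.35, 1.83 and 2.93 TPM in WT, 2.75, 1.87 and 1.61 in LFKO, 0.684, 1.49 and 1.34 in LPKO and 0.689, 0.841 and 1.08 in LFPKO livers. As with Cyp2c38, both RD groups labelled as lacking PPARα lay below WT, here without a call (-0.64 ± 0.29 and -0.84 ± 0.29). RD LFPKO was called against WT, and against LFKO, when the other groups were left out of the fit. In HFD livers it was 0.336, 0.265 and 0.282 TPM in WT, 0.452, 1.24 and 4.09 in LFKO, 0.658, 0.434 and 0.388 in LPKO and 0.116, 0.0872 and 0.512 in LFPKO. LFKO was called higher than WT (0.98 ± 0.29) and LFPKO lower than LFKO (-1.06 ± 0.29), in both cases with HFD LFKO replicate 3 far above the others. Without that replicate they were 0.48 and -0.56, not called, and without HFD LFKO replicate 1 they were 1.38 and -1.46. The first call was also lost without any 1 of the HFD WT libraries or HFD LFKO replicate 2 (0.48 to 1.38), and the second without HFD LFPKO replicate 1 or 2 (-1.46 to -0.56). Both were lost with no filter on low values and when the other groups were left out of the fit, and the first after either rescaling. Over the 24 libraries log2 levels of Cyp2c38 and Cyp2c39 had a Pearson correlation of 0.891, given as a description since the libraries share groups and the genes share sequence.

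Cyp2c40 encodes an arachidonic acid hydroxylase and, like its neighbour Cyp2c69, is known to be higher in female than in male mouse liver. Cyp2c40 on RD was 1.45, 10.5 and 6.83 TPM in WT, 150.2, 54.7 and 141 in LFKO, 1.03, 5.91 and 6.12 in LPKO and 3.94, 2.10 and 0.592 in LFPKO livers. The lowest LFKO library was above all 21 libraries of the other groups, which reached at most 10.5 TPM. On HFD the gene was 2.65, 1.47 and 0.728 TPM in WT, 2.56, 0.941 and 2.52 in LFKO, 0.847, 0.200 and 0.595 in LPKO and 2.91, 0.107 and 0.0547 in LFPKO livers, with no separation of LFKO from WT. RD LFKO was called higher than RD WT (4.13 ± 0.61), and RD LFPKO and HFD LFKO were called lower than RD LFKO (-5.19 ± 0.61 and -5.20 ± 0.61). None of these 3 calls was lost with 1 library left out. Because the libraries are of whole liver, fewer cells with a transcript and less of it per cell cannot be told apart, here and for every other gene described.

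Cyp2c69 showed the same order at a lower level. It was 0.490, 3.07 and 2.41 TPM in RD WT, 53.1, 16.0 and 40.6 in RD LFKO, 0.232, 1.46 and 1.15 in RD LPKO and 0.373, 0.342 and 0.237 in RD LFPKO livers. On HFD it was 0.454, 0.414 and 0.0481 TPM in WT, 0.533, 0.183 and 0.855 in LFKO, 0.119, 0 and 0.102 in LPKO and 0.322, 0.0321 and 0.0491 in LFPKO livers, where HFD LPKO replicate 2 is listed at 0. Every RD LFKO library was again above the other 21, which reached at most 3.07 TPM. The 3 calls of Cyp2c40 were made for Cyp2c69 too, with 3.62 ± 0.36 for RD LFKO against WT, -4.68 ± 0.36 for RD LFPKO against LFKO and -4.49 ± 0.36 for HFD against RD in LFKO livers, none lost with 1 library left out. RD LFPKO livers lay below RD WT in every library without a call (-1.06 ± 0.36), though they were called without RD WT replicate 1. Within RD LFKO replicate 2 was the lowest for both genes. Cyp2c69 made up 24.6% ± 1.81 of the sum of both genes in RD WT and 23.7% ± 2.10 in RD LFKO livers (SD, n = 3), and their log2 levels had a correlation of 0.974 over the 24 libraries, which share groups. The sum of both was called higher in RD LFKO than in WT (4.19 ± 0.63).

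Set within their block of like genes, Cyp2c40 and Cyp2c69 were a minor part except in RD LFKO livers. They held 1.57% ± 1.14 of the summed TPM of Cyp2c40, Cyp2c67, Cyp2c68 and Cyp2c69 in RD WT and 20.8% ± 8.15 in RD LFKO livers (SD, n = 3), and their mean share was 0.178% to 1.30% in the other 6 groups. Over the same 2 groups the share of Cyp2c67 was 62.0% ± 1.33 and 34.4% ± 4.81, without overlap. Neither Cyp2c67 (-0.45 ± 0.33, limma adjusted p = 0.545) nor Cyp2c68 (0.70 ± 0.25, limma adjusted p = 0.178) was called in RD LFKO against WT. The sum of the 4 genes in RD LFKO was above WT in every library and was not called (0.41 ± 0.29). How reads were divided among the 4 genes was not tested. On HFD, by contrast with the 2 members, Cyp2c67 (1.11 ± 0.33, limma adjusted p = 0.031) and Cyp2c68 (1.08 ± 0.25, limma adjusted p = 0.012) rose in LFKO livers.

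**Figure D3:**
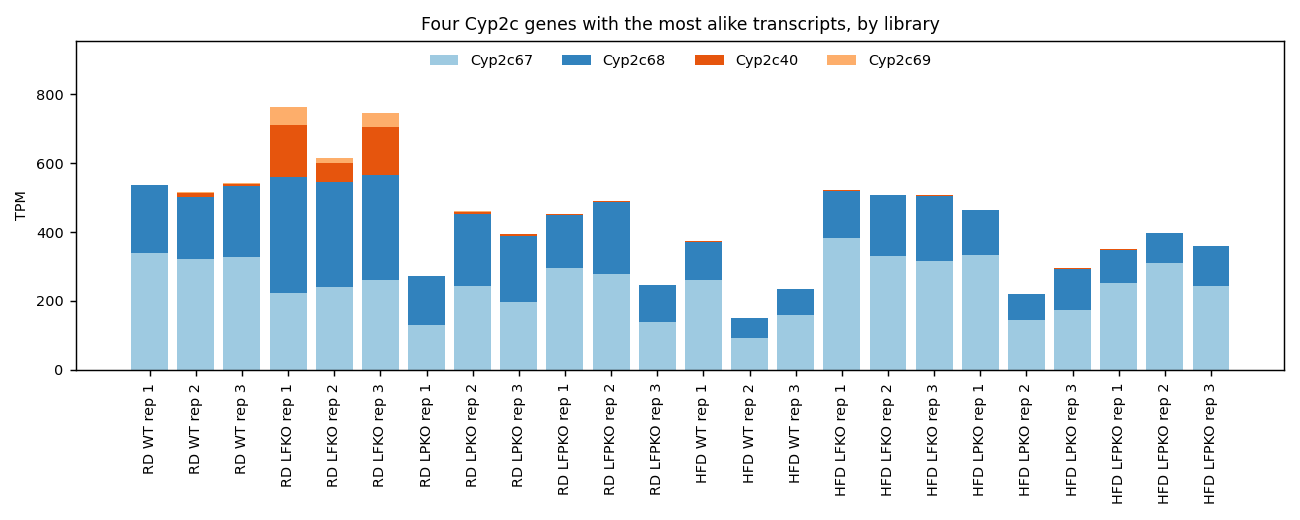
TPM of the 4 Cyp2c genes with the most alike transcripts, stacked in each of the 24 libraries, so that the height of a bar is their sum. Cyp2c40 and Cyp2c69 form a visible part of the bar in the 3 RD LFKO libraries, where they held 11.5% to 26.6% of it, and Cyp2c67 and Cyp2c68 make up nearly all of it elsewhere.

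Cyp2c55 encodes an arachidonic acid hydroxylase that is known to be induced through CAR and PXR, and 97.1% of its 31-base stretches are its own. Its RD values were 4.47, 4.39 and 4.18 TPM in WT, 7.39, 15.7 and 17.8 in LFKO, 10.4, 8.87 and 9.998 in LPKO and 14.3, 12.1 and 17.0 in LFPKO livers. All 9 knockout libraries lay above the 3 WT libraries, and each knockout was called higher: LFKO by 1.37 ± 0.21, LPKO by 1.01 ± 0.21 and LFPKO by 1.52 ± 0.21. No call was lost with 1 library left out. LFPKO also lay above LPKO without a call (0.51 ± 0.21). In HFD livers it was 0.282, 0.300 and 0.412 TPM in WT, 0.350, 0.558 and 0.939 in LFKO, 1.08, 1.15 and 0.778 in LPKO and 0.966, 1.05 and 0.985 in LFPKO. The 12 HFD libraries (0.282 to 1.15 TPM) all lay below the 12 RD libraries (4.18 to 17.8 TPM), and the RD mean of WT livers was 13.1-fold the HFD mean. At these levels, LPKO and LFPKO lay above WT in every library without a call (0.59 ± 0.21 and 0.59 ± 0.21), though both were called with a pseudocount of 0.1 and after leaving out Mup and mitochondrial-genome transcripts. Diet differences were called in every genotype, at -2.01 ± 0.21 in WT, -3.11 ± 0.21 in LFKO, -2.43 ± 0.21 in LPKO and -2.94 ± 0.21 in LFPKO livers.

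Cyp2c70 hydroxylates bile acids in mice to make muricholic acids, which human liver does not produce. It was the most divergent member and all of its 31-base stretches are its own. Its RD values were 203, 289.6 and 376 TPM in WT, 320.5, 241 and 359.7 in LFKO, 264, 447 and 329.5 in LPKO and 282, 286 and 226 in LFPKO livers. In HFD livers it was 608, 505 and 459 TPM in WT, 499.9, 381 and 309.7 in LFKO, 367, 258 and 445 in LPKO and 527, 448 and 291 in LFPKO. HFD WT livers lay above RD WT livers and were called higher (0.89 ± 0.26), a call lost without RD WT replicate 1 or HFD WT replicate 1 or 2 (0.65 to 1.10). The other 3 genotypes had no diet call (0.36 ± 0.26 in LFKO, 0.039 ± 0.26 in LPKO and 0.63 ± 0.26 in LFPKO), and whether they differ from WT in this was tested only by the interaction terms below, none of which was called for Cyp2c70. No knockout was called against WT, though every HFD LPKO library lay below every HFD WT library (-0.58 ± 0.26). Its share in the TPM of all Cyp2c rows was 7.75% ± 1.86 in RD WT and 29.2% ± 6.35 in HFD WT livers (SD, n = 3).

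Counted over the family, the knockouts on the regular diet differed in which members were called. Between LFKO and WT livers 4 of the 10 members were called, Cyp2c40, Cyp2c55 and Cyp2c69 higher and Cyp2c37 lower, while 1.67% of all tested genes were called. In LPKO livers 2 were called, Cyp2c55 higher and Cyp2c38 lower, beside 5.85% of all genes. In LFPKO livers 3 were called, Cyp2c55 higher and Cyp2c37 and Cyp2c38 lower, beside 7.45%. Summed TPM of the 8 Kupffer cell markers was lower in both of these groups, at 45.7 to 67.4 in LPKO and 39.0 to 79.5 in LFPKO against 84.3 to 139.6 in WT livers, with 1 of the 8, Cd163, called in each. Hepatocyte marker sums were lower as well, at 82588 to 92129.6 TPM in LPKO and 83081 to 97520.3 in LFPKO against 98547 to 99606 in WT livers, with 0 of 9 called by limma in either (3 and 2 at an unadjusted p under 0.05). Gut and pancreas marker sums were lower in LPKO livers (34.8 to 44.3 against 46.9 to 49.98 TPM). In that list 5 of 8 genes stayed under 1 TPM in every library. Fabp2, a fatty acid binding protein gene, was the 1 gut marker tested, so these sums describe few genes. The part of these shifts in the result was not tested. Cyp2c55 was thus the member called in all 3 knockouts, which share the RD WT libraries as controls. The members' median difference was 0.026, -0.39 and -0.95 in LFKO, LPKO and LFPKO livers, beside 0.034, 0.045 and 0.011 over all tested genes. Since the members were chosen with these differences in view, nothing is read from the counts against the background.

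Setting the double knockout against each single knockout asks what the second deletion changed. On RD, LFPKO against LFKO called 3 members, Cyp2c38, Cyp2c40 and Cyp2c69, all lower, beside 5.08% of all genes. Cyp2c68 fell as well (-1.07 ± 0.25, limma adjusted p = 0.013). RD LFPKO against LPKO called 0 members by limma, beside 0.123% of all genes. At an unadjusted limma p under 0.05 there were 4 members, with no share of all genes counted at that threshold. Cyp2c37 (-1.44 ± 0.33), Cyp2c54 (-0.93 ± 0.37), Cyp2c50 (-0.62 ± 0.23) and Cyp2c38 (-0.37 ± 0.53) lay wholly below LPKO. Cyp2c55 (0.51 ± 0.21) lay wholly above it. The share of all genes without overlap was not counted. Without RD LFPKO replicate 2, Cyp2c37 was called lower there (-1.80). On HFD, LFPKO against LFKO called 2 members lower, Cyp2c38 and Cyp2c39, beside 10.6%, and LFPKO against LPKO called 1 lower, Cyp2c37, beside 0.351%. Without HFD LFPKO replicate 3, Cyp2c50 (-1.02) and Cyp2c54 (-1.84) joined it. Hepatocyte marker sums were lower in LFPKO than in LFKO livers on both diets (83081 to 97520.3 against 118902 to 128603 TPM on RD, 58698 to 79112 against 89616 to 120581 on HFD), and their part in the results was not tested.

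Fewer members were called between the genotypes on the high-fat diet, and nothing about the members is read from these counts either. LFKO livers had 2 members called higher than WT, Cyp2c38 and Cyp2c39, beside 13.5% of all genes. LPKO livers had 1 called higher, Cyp2c50, beside 4.73%, and LFPKO livers 1 called lower, Cyp2c37, beside 3.09%. Median differences of the members were 0.26, 0.17 and -0.22 in LFKO, LPKO and LFPKO livers, beside 0.21, 0.11 and 0.071 over all genes. Without HFD LFKO replicate 1 the LFKO comparison called 3 members, with Cyp2c29 added, and 3500 genes in place of 1420. Leaving out Mup and mitochondrial-genome transcripts, or fitting only the compared groups, left 0 members called in it. Stellate cell markers were also higher in HFD LFKO livers (91.0 to 103 summed TPM against 45.1 to 65.7 in WT), with 3 of 4 tested called and 0 called after either rescaling. Marker sums of 3 other lists also lay wholly above HFD WT there: hepatocyte (89616 to 120581 against 59983 to 77147 TPM), cholangiocyte (50.6 to 65.4 against 25.3 to 47.3) and gut and pancreas (76.1 to 94.97 against 38.8 to 58.6). In HFD LPKO livers, where Cyp2c50 was called, stellate (70.9 to 106) and gut and pancreas sums (71.6 to 99.5) lay above WT. Fabp2, a fatty acid binding protein gene and the 1 gut marker tested, was called higher in both (0.79 and 0.78), in LFKO not after either rescaling. The part of these shifts in the results was not tested.

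**Figure D4:**
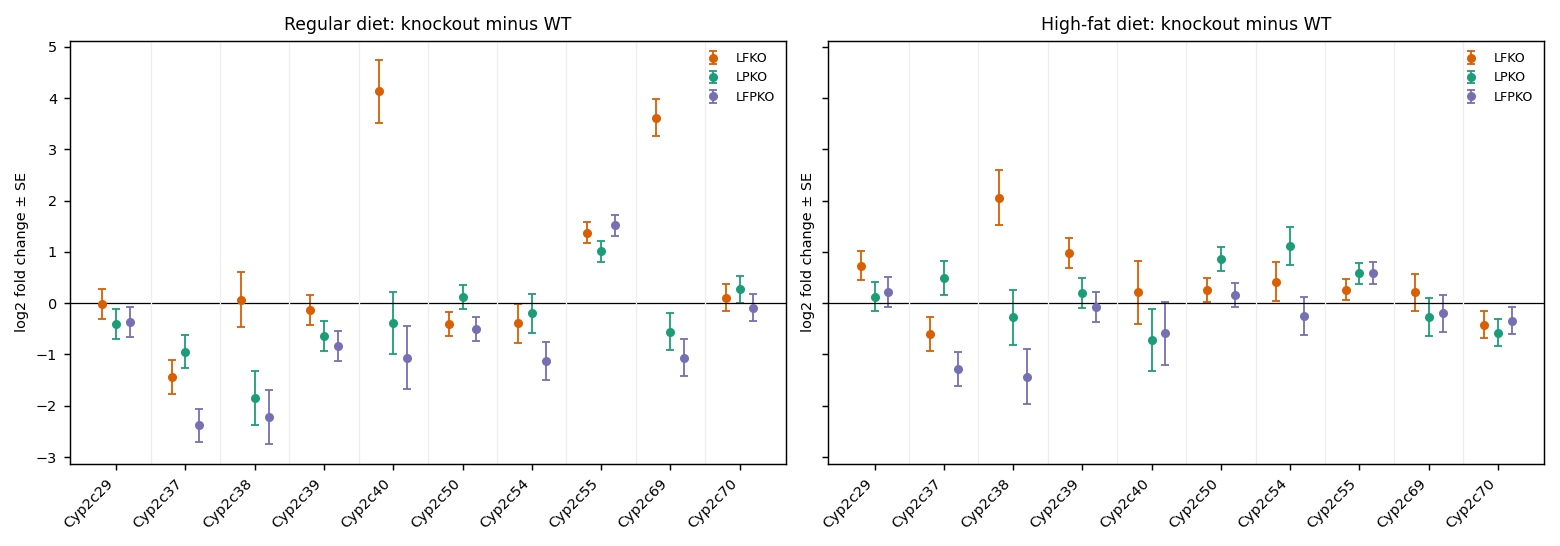
Log2 fold change ± SE of each member in LFKO, LPKO and LFPKO livers against WT livers, on the regular diet at left and the high-fat diet at right, on 1 scale. Cyp2c40 (4.13) and Cyp2c69 (3.62) rise far above 0 in LFKO on the regular diet and lie near 0 on the high-fat diet, while Cyp2c55 is above 0 for all 3 knockouts at left.

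More members were called between the diets in WT livers than between any knockout and WT. So were more of all genes (30.8% against at most 13.5%), and nothing about the members is read from these counts. HFD against RD in WT called 9 of 10 members, Cyp2c70 higher and Cyp2c29, Cyp2c37, Cyp2c38, Cyp2c39, Cyp2c50, Cyp2c54, Cyp2c55 and Cyp2c69 lower, beside 30.8% of all genes. The differences were -1.16 ± 0.33 for Cyp2c37, -2.46 ± 0.53 for Cyp2c38, -1.37 ± 0.29 for Cyp2c39, -0.90 ± 0.23 for Cyp2c50, -1.36 ± 0.37 for Cyp2c54 and -1.09 ± 0.36 for Cyp2c69, and the remaining member, Cyp2c40, had -1.27 ± 0.61 without a call. The other tested rows also fell, Cyp2c23 (-0.58 ± 0.18), Cyp2c67 (-1.06 ± 0.33) and Cyp2c68 (-1.30 ± 0.25), with limma adjusted p = 0.0201, 0.0223 and 0.00177. Over all genes the median difference was -0.29, and over the members -1.32. Rescaling by median-of-ratios factors moved the median of all genes to 0.020 and left 5 members called, Cyp2c29, Cyp2c38, Cyp2c39, Cyp2c55 and Cyp2c70, and leaving out Mup and mitochondrial-genome transcripts left the same 5 members, and of the other rows Cyp2c68 alone. After rescaling Cyp2c29 was -2.17, Cyp2c37 -0.80, Cyp2c50 -0.54 and Cyp2c70 1.25. Leaving out HFD WT replicate 2 left 4 members called, without Cyp2c37 (-0.86), Cyp2c50 (-0.71), Cyp2c54 (-1.01), Cyp2c69 (-1.15) and Cyp2c70 (0.91). Cyp2c37 (-1.12), Cyp2c54 (-1.30) and Cyp2c69 (-0.93) also lost the call without RD WT replicate 3, and Cyp2c69 lost it without RD WT replicate 2 or HFD WT replicate 3 (-1.53 to -0.80), with no filter on low values and when the other groups were left out of the fit.

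In the knockouts the diet left fewer members called, and fewer genes of all kinds (997, 1910 and 2773 in LFKO, LPKO and LFPKO against 3250 in WT livers). Nothing about the members is read from these counts. LFKO livers had 4 called lower on HFD, Cyp2c29, Cyp2c40, Cyp2c55 and Cyp2c69, beside 9.45% of all genes. LPKO livers had 2, Cyp2c29 and Cyp2c55, beside 18.1%, and LFPKO livers 3, Cyp2c29, Cyp2c38 (-1.67 ± 0.53) and Cyp2c55, beside 26.3%. The Cyp2c38 call was lost without RD LFPKO replicate 1 or 2 or HFD LFPKO replicate 1 or 2 (-2.15 to -1.42) and with no filter on low values. Cyp2c37 had no diet call in any of the 3 knockouts, at -0.32 ± 0.33, 0.28 ± 0.33 and -0.059 ± 0.33 in LFKO, LPKO and LFPKO livers. Medians of the members were -0.51, -0.66 and -0.54, beside -0.11, -0.22 and -0.23 over all genes. The summed TPM of all 18 Cyp2c rows was called lower on HFD in WT (-1.03 ± 0.17), LFKO (-0.64 ± 0.17) and LFPKO livers (-0.52 ± 0.17) and not in LPKO livers (-0.47 ± 0.17). Marker sums moved with the diet here too. Gut and pancreas sums, with 5 of 8 genes under 1 TPM throughout, were higher on HFD in LFKO (76.1 to 94.97 against 44.7 to 53.2 TPM) and LPKO livers (71.6 to 99.5 against 34.8 to 44.3). Hepatocyte (58698 to 79112 against 83081 to 97520.3) and stellate sums (63.4 to 91.7 against 95.1 to 107) were lower on HFD in LFPKO livers. Their part in the results was not tested.

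**Figure D5:**
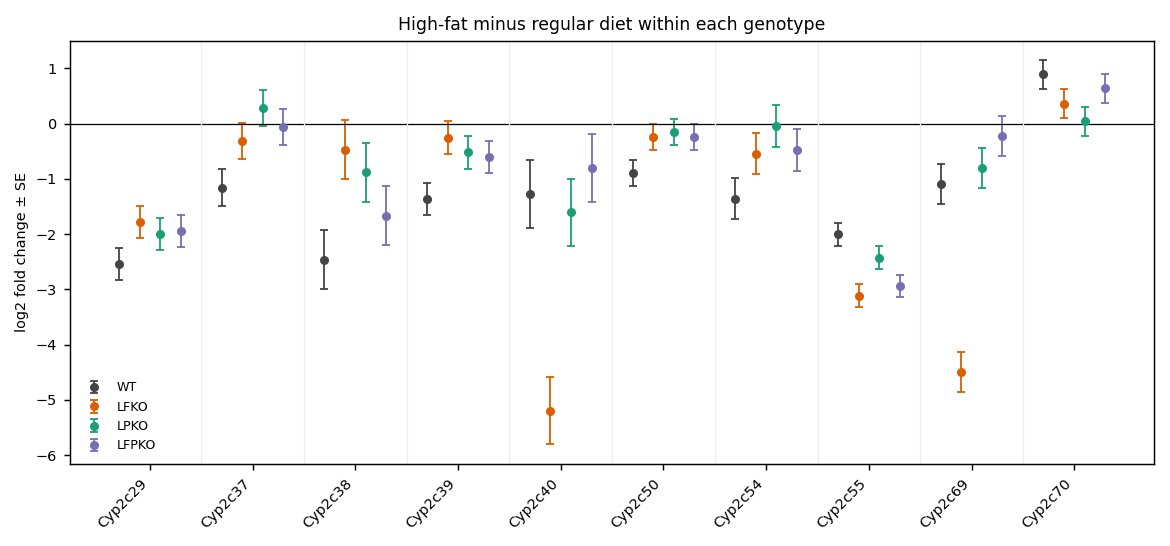
Log2 fold change ± SE of each member on the high-fat against the regular diet, within WT, LFKO, LPKO and LFPKO livers. Cyp2c29 and Cyp2c55 lie at -1.78 or below in all 4 genotypes, Cyp2c40 and Cyp2c69 are lowest in LFKO, and Cyp2c70 is the member above 0 in WT.

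Whether a knockout's effect differed between the diets was tested with interaction terms, positive where the knockout minus WT difference is higher on HFD. For LFKO 1 member was called, Cyp2c69 (-3.40 ± 0.51), beside 0.00948% of all genes, and it was the single gene called among the 10551. That call was lost without RD LFKO replicate 3, HFD WT replicate 1 or 2, or HFD LFKO replicate 2 (-3.90 to -2.96 over the 12 libraries left out in turn), and also with a pseudocount of 0.1, without Mup and mitochondrial-genome transcripts and when the other groups were left out of the fit. Cyp2c40 (-3.92 ± 0.86) pointed the same way and was not called, nor was the sum of both (-3.91 ± 0.90). Without HFD LFKO replicate 1 the term was called for 4 members, Cyp2c38 (2.75), Cyp2c39 (1.52), Cyp2c40 (-4.07) and Cyp2c69 (-3.42), and for 90 genes in all. Limma called 0 members for LPKO by diet, beside 0.171% of all genes, and 0 for LFPKO by diet, beside 0.0284%. At an unadjusted limma p under 0.05 there were 5 and 2 members, with no share of all genes counted at that threshold. Cyp2c37, for example, had 1.44 ± 0.47 for LPKO by diet.

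Some of the genes that CAR and PXR are known to induce fell on the high-fat diet, as Cyp2c29 and Cyp2c55 did. Of 17 tested, 0 rose and 10 fell on HFD in WT livers (beside 30.8% of all genes called in either direction; list median -1.17, all genes -0.29). Led by adjusted p, they were the glutathione transferase genes Gsta2 (-4.13 ± 0.46, limma adjusted p = 1.16e-05), Gstm3 (-2.68, 1.30e-05) and Gsta1 (-3.15, 1.39e-05) and the P450 gene Cyp3a25 (-1.64, 1.56e-04). In the same way 10, 10 and 11 fell and 0 rose in LFKO, LPKO and LFPKO livers (medians -1.27, -1.11 and -1.62), beside 9.45%, 18.1% and 26.3% of all genes called. After either rescaling 8 still fell in WT livers and 1, Por, rose. The drug oxidase gene Cyp3a11 fell in LFPKO livers (-5.74 ± 0.52, limma adjusted p = 1.25e-06). Between RD knockouts and WT livers 1.67%, 5.85% and 7.45% of all genes were called in LFKO, LPKO and LFPKO livers. Of the list 2, 1 and 3 rose there and 0 fell. Gstm3 was among them each time (1.68 ± 0.31, 1.85 ± 0.31 and 2.14 ± 0.31, limma adjusted p = 0.00476, 6.91e-04 and 1.34e-04), as Cyp2c55 was among the members. Over the 24 libraries Gstm3 was also the gene outside the family whose log2 levels were closest to those of Cyp2c55 (Pearson 0.980 among 6730 candidate genes averaging 5 TPM or more), followed by Gsta1 (0.955) and the interferon-induced gene Bst2 (0.948).

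The same search gave Creg1 (0.961), Kctd2 (0.958) and Kansl2 (0.954) for Cyp2c29, and Car8 (0.806), Ahcy (0.793) and Farp2 (0.772) for Cyp2c37. For Cyp2c40 it gave Cars (0.793), Mbl1 (0.779) and Mtor (0.776), and for Cyp2c69 Oxa1l (0.801), Cars (0.798) and Alkbh7 (0.768). Cyp2c70 was closest to Adh6-ps1 (0.778), Nrep (0.769) and Hsd3b5 (0.766). These correlations over 24 libraries in 8 groups share diets, genotypes and total TPM and are a description. Within the family the highest after Cyp2c40 with Cyp2c69 was 0.935 for Cyp2c50 with Cyp2c54, and Cyp2c29 had 0.863 with Cyp2c55 and -0.662 with Cyp2c70.

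Some sex-biased liver genes were called in RD LFKO livers, the group in which Cyp2c40 and Cyp2c69 were high. Of 5 tested female-biased genes 2 rose and 0 fell there, beside 1.67% of all genes called (list median 2.01, all genes 0.034). The 2 were the P450 genes Cyp2b9 (4.82 ± 0.68, limma adjusted p = 4.82e-04) and Cyp2a4 (7.63 ± 1.17, limma adjusted p = 9.25e-04). Cyp2b9 also fell in RD LFPKO against LFKO livers (-5.55 ± 0.68, limma adjusted p = 2.01e-05), where Cyp2c40 and Cyp2c69 were called lower. Cyp2a4 also rose in RD LPKO (6.50 ± 1.17) and RD LFPKO livers (7.42 ± 1.17, limma adjusted p = 0.0015 and 3.55e-04), where neither member was called. On HFD, where neither member was called in LFKO livers, 4 of the 5 rose, Cyp2b9 among them (4.62 ± 0.68, limma adjusted p = 4.83e-04), beside 13.5% of all genes called. The high-fat diet within LFKO livers had 1 of the 5 called higher, Fmo2 (0.91 ± 0.28, limma adjusted p = 0.0431), and 1 called lower, Cyp2a4 (-3.77 ± 1.17, limma adjusted p = 0.0475). Of all genes 9.45% were called there. After either rescaling only Fmo2 of the 5 was called. Of 20 male-biased genes 1 rose and 10 fell in RD LFKO livers (median -1.39), beside the same 1.67% of all genes. Those that fell were led by Mup21 (-3.90), Susd4 (-1.77), Mup12 (-3.08) and Mup1 (-3.10), and the one that rose was the anion transporter gene Slco1a1 (1.04 ± 0.19, limma adjusted p = 0.00476). In RD LFPKO against LFKO livers 9 of the 20 rose and 0 fell (median 0.87), led by Mup20 (3.07 ± 0.39, limma adjusted p = 3.39e-05), beside 5.08% of all genes called. The male-biased list includes Mup1, Mup3, Mup7, Mup12, Mup20 and Mup21, and also Cyp4a12a with Cyp4a12b. How reads were divided among such related genes was not tested, so these counts and medians are not of unrelated genes. Comparisons that share the RD LFKO libraries are not independent of each other. Limma called 0 of the 4 Y-linked genes in RD LFKO against WT livers, with 0 at an unadjusted p under 0.05.

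Regulators and partners of the P450 enzymes were counted in the same comparisons. Of 25 tested regulators of liver P450 genes, limma called 0 in RD LFKO against WT livers (5 at an unadjusted p under 0.05) and 0 in RD LPKO (6 at an unadjusted p under 0.05), and among those called in RD LFPKO livers 2 rose, Foxa3 (0.66) and Esr1 (0.88). On HFD in WT livers 1 rose and 5 fell, beside 30.8% of all genes called. Those that fell included the PXR gene Nr1i2 (-0.54 ± 0.16, limma adjusted p = 0.0172) and Hnf4a (-0.43 ± 0.12, limma adjusted p = 0.0178), and the one that rose was Cebpb (0.82 ± 0.27, limma adjusted p = 0.0308). None of the 5 falls was called after either rescaling, while Cebpb and Foxa3 were called higher. Of 14 genes for electron transfer and heme synthesis 6 fell and 0 rose on HFD in WT livers, beside the same 30.8%. Those that fell were led by the cytochrome b5 gene Cyb5b (-1.27 ± 0.17, limma adjusted p = 8.85e-05) and Pgrmc1 (-0.94 ± 0.14, limma adjusted p = 2.92e-04), the 2 that still fell after either rescaling. The heme synthesis gene Cpox was the 1 of the list called in RD LPKO (-1.28 ± 0.17) and RD LFPKO livers (-1.50 ± 0.17, limma adjusted p = 9.55e-05 and 1.24e-05), where 5.85% and 7.45% of all genes were called.

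On HFD in WT livers, where 30.8% of all genes were called, 3 of 9 tested genes that release arachidonic acid or handle its epoxides fell and 0 rose. The epoxide hydrolase gene Ephx1 came first (-1.57 ± 0.21, limma adjusted p = 8.27e-05). After either rescaling 2 fell and Cyp2u1 rose. Ephx2, whose hydrolase opens fatty acid epoxides, fell in RD LPKO livers (-0.64 ± 0.11, limma adjusted p = 0.00118), as did the fatty acid binding protein gene Fabp1 (-0.94 ± 0.19, limma adjusted p = 0.00408). Around Cyp2c70, 7 of 14 bile acid genes fell and 0 rose on HFD in WT livers (median -0.42), beside the same 30.8%. This was opposite to Cyp2c70 itself, but 0 fell after median-of-ratios scaling and 2 after leaving out Mup and mitochondrial-genome transcripts. One of them was the sterol hydroxylase gene Cyp8b1 (-1.50 ± 0.36, limma adjusted p = 0.00655). In RD LFKO livers, where 1.67% of all genes were called, the oxysterol hydroxylase gene Cyp7b1, which is male-biased, was the one of the 14 that fell (-2.78 ± 0.51, limma adjusted p = 0.00516).

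Zonation and cell type markers were measured beside these differences. Of 18 pericentral genes limma called 0 in RD LFKO against WT livers (5 at an unadjusted p under 0.05), beside 1.67% of all genes called. On HFD in WT livers, beside 30.8% of all genes called, 7 fell and 0 rose (median -0.33), led by Oat (-1.56 ± 0.19, limma adjusted p = 3.41e-05). After the 2 rescalings 2 and 4 fell and 1, Gulo, rose. Of 17 periportal genes 1 rose and 4 fell in the same comparison, where 30.8% of all genes were called (median -0.36), Cdh1 (0.73) being the one that rose, and after either rescaling 0 fell. Summed TPM of the 9 matched hepatocyte markers was 98547 to 99606 in RD WT, 118902 to 128603 in RD LFKO and 59983 to 77147 in HFD WT livers, and 4 of the 9 fell on HFD in WT livers, against 1 after either rescaling. The 5 stellate cell markers summed to 106 to 154, 91.8 to 124 and 45.1 to 65.7 TPM in these groups, and 4 of 4 tested fell on HFD in WT livers, against 3 after either rescaling. The 8 Kupffer cell markers summed to 84.3 to 139.6, 65.6 to 89.6 and 39.1 to 95.6 TPM, with Marco called lower in RD LFKO and in HFD WT against RD WT livers. Endothelial markers (7) summed to 24.3 to 54.4 TPM over the 24 libraries, with 1 called lower on HFD in WT livers. Cholangiocyte markers (5) summed to 25.3 to 86.6 TPM with Krt7 below 1 TPM throughout, and blood leukocyte markers (5) to 1.80 to 23.4 TPM with Cd3e and Cd79a below 1 TPM. Gut and pancreas markers (8) summed to 34.8 to 99.5 TPM, highest in HFD LFKO and HFD LPKO livers as given above, with Alpi, Muc2, Prss2, Cpa1 and Cel below 1 TPM. The part of cell makeup in the differences of the members was not tested.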

How the data were processed

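Liver mRNA was sequenced from 24 libraries (Trizol RNA, TruSeq stranded mRNA libraries, per the labels' protocols). The authors deposited TPM per gene, made with kallisto on GRCm38 (mm10), per the submitters' processing notes. The sources used here do not name the transcript annotation or the software versions. Kallisto divides reads among similar transcripts by estimation, which bears on like Cyp2c genes. One row without a gene name held 0.0104% to 0.0250% of TPM and was left out.

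The 10551 of 34945 genes averaging 1 TPM or more were fitted as log2(TPM + 1) with limma 3.58.1 in R 4.3.3, with 8 group means over 24 libraries, 16 residual degrees of freedom and an intensity trend. Within each of 17 comparisons p-values were adjusted by the Benjamini-Hochberg method over all tested genes and called under 0.05. The fit was tested on simulated data. The members and gene lists were chosen with earlier results of these data known, so no adjusted p is given for a member. Named genes are the members, their sums, every other Cyp2c row, sex chromosome genes, the 3 closest genes by Pearson correlation for 6 members, and in each list up to 4 called genes with the smallest adjusted p and any called against the majority. Vnn1 was chosen after its values were seen. Replicate numbers were not used to pair the libraries in the main fit.

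Transcripts were compared with Biopython 1.88 on GENCODE M21, promoters came from RefSeq, and plots from matplotlib 3.10.9 (Python 3.11.15). Other settings tried were no filter on low values, a filter at 5 TPM, a pseudocount of 0.1, median-of-ratios scaling, leaving out Mup and mitochondrial-genome transcripts, the compared groups only, a replicate block, sums of like genes and each library left out. The gene lists under both rescalings and without HFD LFKO replicate 1, and the sum of Cyp2c40, Cyp2c67, Cyp2c68 and Cyp2c69, were added after seeing the data. The result of 1 listed regulator gene is not reported here.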

Additional observations from a re-analysis of the deposited data

Results flagged for a closer look

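The effect of the LFKO genotype on Cyp2c69 differed between the diets by the interaction term, at -3.40 ± 0.51 on the log2(TPM + 1) scale. RD LFKO libraries lay far above RD WT and HFD LFKO libraries overlapped with HFD WT. The call was lost in 4 of 12 fits with 1 library left out, with a pseudocount of 0.1, without Mup and mitochondrial-genome transcripts and with the other groups left out, and the sum of Cyp2c40 and Cyp2c69 was not called (-3.91 ± 0.90).

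For Cyp2c39 every RD LPKO library lay below, and every HFD LPKO library above, the WT libraries of the same diet. The difference between the diets was 0.84 ± 0.41; its interaction term was not called by limma, and no other test of it was made. All 6 HFD libraries concerned were under 1 TPM.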

How the results depend on the processing

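Member counts are given as main, then alternative. With a pseudocount of 0.1 they went from 2 to 1 in RD LPKO against WT, 1 to 2 in HFD LPKO and in HFD LFPKO against WT, and 1 to 0 for LFKO by diet. That setting also added Cyp2c69 for the diet in LPKO and Cyp2c39 for the diet in LFPKO livers. Without a filter on low values the counts were 1 in RD LPKO and HFD LFKO and 0 in HFD LPKO and HFD LFPKO against WT, and 1 and 0 in HFD LFPKO against LFKO and LPKO. Calls were also lost for Cyp2c37 in RD LFKO against WT, Cyp2c69 for the diet in WT and Cyp2c38 for the diet in LFPKO livers. With a mean TPM of at least 5 the counts were 1 in HFD LFKO against WT and in HFD LFPKO against LFKO, and Cyp2c39 was lost for the diet in WT. Median-of-ratios scaling gave 1 in HFD LFKO against WT and 5 for the diet in WT, and added Cyp2c54 in RD LFPKO against WT. Leaving out Mup and mitochondrial-genome transcripts gave 0 in HFD LFKO, 2 in HFD LPKO, 2 in HFD LFPKO, 5 for the diet in WT and 0 for LFKO by diet. It too added Cyp2c54 in RD LFPKO against WT. Fitting only the compared groups gave 0 in HFD LFKO, HFD LPKO and HFD LFPKO against WT, 1 and 0 in HFD LFPKO against LFKO and LPKO, and 0 for LFKO by diet. It added Cyp2c37 in RD LPKO against WT and Cyp2c39 in RD LFPKO against WT and against LFKO. Cyp2c69 was lost for the diet in WT. The causes of these shifts were not tested. The replicate block gave 1 in place of 2 in RD LPKO against WT (Cyp2c38 lost) and changed no other member call. In 0 of 14 comparisons of 2 groups did the deviations of all 3 same-numbered pairs correlate above 0.1. HFD LFPKO against LFKO had 0.319, 0.0932 and 0.387. This rule cannot tell what a replicate number shares, which the labels do not say.

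With 1 library left out, member counts ranged from 3 to 4 in RD LFKO, 1 to 1 in RD LPKO, 2 to 4 in RD LFPKO, 0 to 3 in HFD LFKO, 0 to 1 in HFD LPKO and 0 to 1 in HFD LFPKO against WT. They ranged from 2 to 4 in RD LFPKO against LFKO, 0 to 1 against LPKO, and on HFD 1 to 3 and 0 to 3. The diet gave 4 to 9 in WT, 4 to 5 in LFKO, 2 to 3 in LPKO and 2 to 5 in LFPKO, and LFKO by diet gave 0 to 4. The sum of Cyp2c40, Cyp2c67, Cyp2c68 and Cyp2c69, chosen after seeing the data and mostly Cyp2c67 and Cyp2c68, had an LFKO by diet term of its own of 0.70, opposite in sign to that of Cyp2c69 alone. Over all genes, rescaling moved the median of the diet in WT from -0.29 to 0.020, and counts called there ranged from 836 to 3585 around 3250 over the alternatives; they ranged from 168 to 3500 around 1420 in HFD LFKO and from 75 to 444 around 176 in RD LFKO against WT. Depth is unknown, which limits Cyp2c39, Cyp2c69 and HFD Cyp2c55, all near or under 1 TPM in many libraries.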
